A study of Bos indicus and Bos indicus x Bos taurus and Bos taurus with 6 samples.

Results

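The 8 genes described here encode proteins that recognise RNA or DNA in the cytosol, pass that signal on or limit it: IFIH1, DHX58, MAVS, TRIM25, EIF2AK2, ADAR, SAMHD1 and ZBP1. They were taken by gene symbol from a table of read counts for 21698 bovine genes, all 8 were found, and all 8 passed the filter on low counts. The RNA came from jugular whole blood of cows of 3 breeds on a university farm in Malaysia. The labels rate the indigenous Kedah-Kelantan as heat-tolerant, the composite breed Brangus as intermediate and the temperate Holstein Friesian as heat-vulnerable. Each breed had 2 libraries labelled as biological replicates, whereas the design text counts 4 animals per breed, and whether a library holds 1 animal or a pool is not known here. The cows were adult females, neither pregnant nor in lactation (4.5 ± 1.2 years and 450 ± 15 kg, as the labels give them for the whole set). All were bled under heat stress at a labelled temperature-humidity index of 44.68, whose formula is not given. No library came from unstressed cows, so the comparisons are between breeds under the same heat load.

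IFIH1, also known as MDA5, binds long double-stranded RNA and signals through MAVS, an adaptor on the outer mitochondrial membrane, to induce type I interferon. DHX58, also known as LGP2, is a related helicase without signalling domains that modulates IFIH1, and TRIM25 is a ubiquitin ligase that promotes signalling by the sister sensor RIG-I. EIF2AK2 (PKR) is a kinase that halts translation when it binds double-stranded RNA, and ADAR edits adenosines in such RNA so that the cell's own transcripts are less readily sensed. SAMHD1 degrades deoxynucleotides and is abundant in myeloid cells, and ZBP1 binds left-handed nucleic acid and can start necroptosis. Most of these genes are themselves induced by interferon, whereas MAVS is largely constitutive.

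Total counts lay between 25275377 and 28668857 per library. Markers of T cells, B and plasma cells, NK and cytotoxic cells, monocytes and platelets had counts in all 6 libraries, and HBA1 and CA1 of the erythroid list had none in any. Holstein Friesian replicate 2 stood apart from replicate 1. The summed level of 11 monocyte markers was 8116 CPM (counts scaled to library size by the TMM method) in replicate 2 and 886 in replicate 1, that of 11 neutrophil markers was 5192 and 378, and that of 11 B and plasma cell markers was 245 and 3331. Kedah-Kelantan and Brangus also differed in markers, with 8 markers of eosinophils, basophils and mast cells at 444 to 461 CPM against 42.4 to 46.9, and 10 platelet markers at 300.2 to 347 against 1287 to 1417. In whole blood, fewer cells of a type and less RNA per cell cannot be told apart.

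Counted over all 6 libraries, none of the 8 genes differed between breeds by edgeR's quasi-likelihood test with Benjamini-Hochberg adjustment over 13455 genes. The share of all tested genes that passed was 0.00743% for Kedah-Kelantan against Holstein Friesian, 0.00743% for Brangus against Holstein Friesian and 0% for Kedah-Kelantan against Brangus. DESeq2 also called 0 of the 8 in each comparison, while it called 0.672%, 1.96% and 3.77% of the genes it tested in the same order. At an unadjusted p under 0.05 stood 0 members in the first comparison (4.04% of all tested genes), TRIM25 in the second (7.62%) and MAVS in the third (11.6%). The pattern across libraries was common to most members. The highest of the 6 libraries was Holstein Friesian replicate 2 for 7 of 8 genes (29.1% of all tested genes), MAVS being the exception. Both Brangus libraries lay below the other 4 for MAVS, TRIM25, SAMHD1 and ZBP1 (4 of 8, against 12.1% of all tested genes). Both Kedah-Kelantan libraries lay between the 2 Holstein Friesian libraries, with replicate 1 below them and replicate 2 above them, for 6 of 8 genes (23.6% of all tested genes), the exceptions being MAVS and TRIM25.

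**Figure D1:**
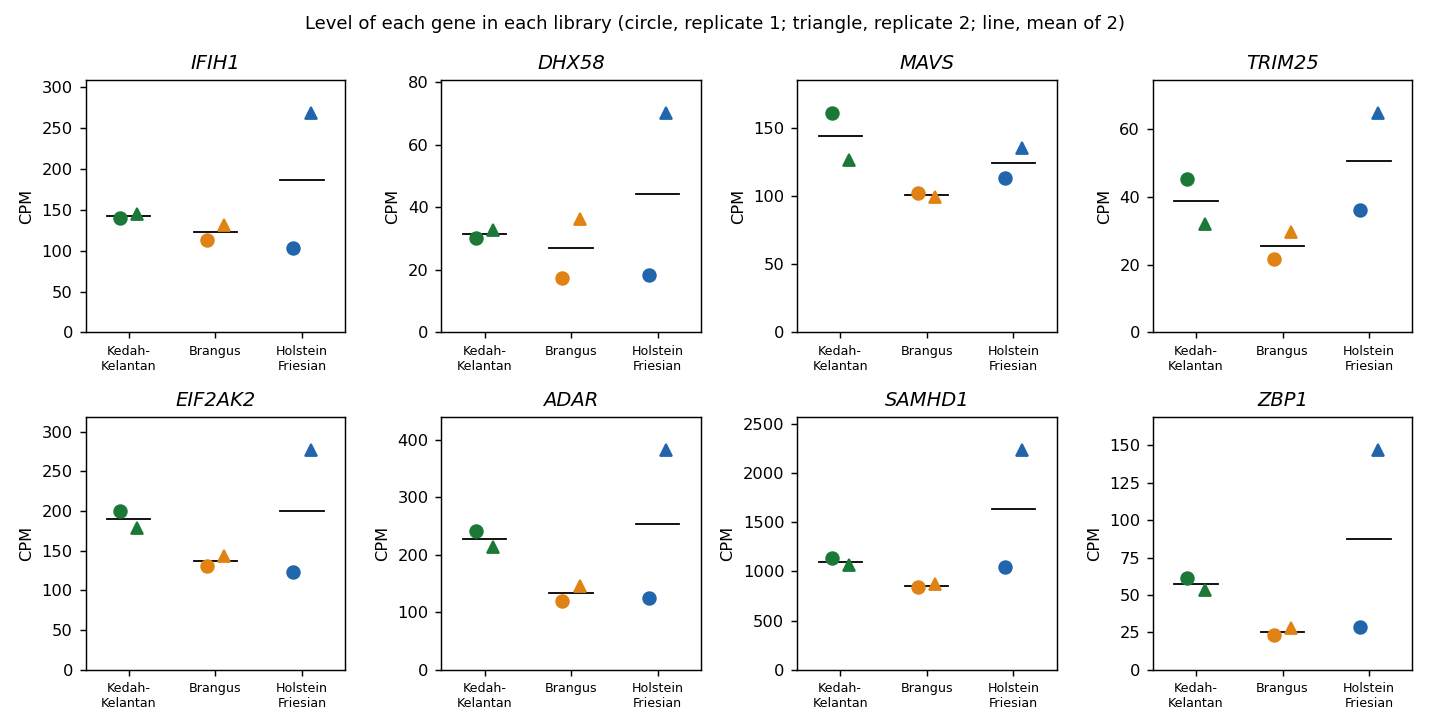
Level of each of the 8 genes in CPM (vertical axes, starting at 0 and scaled per gene) in the 2 libraries of each breed, with circles for replicate 1, triangles for replicate 2 and a line at their mean. Holstein Friesian replicate 2 is the highest library in every panel but MAVS, and the Kedah-Kelantan libraries lie above the Brangus libraries in every panel but DHX58.

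Per length of gene, SAMHD1 was the most abundant member in all 6 libraries, IFIH1 the second and ADAR the third. On the deposited FPKM scale (fragments per kilobase, scaled to the counted reads of the library) SAMHD1 ranged from 114 in Brangus replicate 1 to 305 in Holstein Friesian replicate 2, IFIH1 from 28.3 to 67.9 and ADAR from 15.4 to 49.5. The remaining members lay close together, with medians over the 6 libraries of 15.2 FPKM for TRIM25, 13.4 for EIF2AK2, 12.8 for DHX58, 7.68 for MAVS and 7.02 for ZBP1. The order among these 5 differed from library to library. ZBP1, with a range of 3.40 to 22.1 FPKM, was below MAVS in all Brangus libraries and in Holstein Friesian replicate 1 and above it in Holstein Friesian replicate 2, at FPKM ratios of ZBP1 to MAVS of 0.57, 0.71, 0.64 and 2.77. In Kedah-Kelantan that ratio was 0.97 and 1.07. In FPKM the sensor IFIH1 was 3.75 to 5.69 times its adaptor MAVS in 5 libraries and 8.53 times in Holstein Friesian replicate 2. That ratio depends on the gene lengths. In CPM, MAVS was above IFIH1 in Kedah-Kelantan replicate 1 (161 against 140.5) and Holstein Friesian replicate 1 (114 against 103), and below it in the others.

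**Figure D2:**
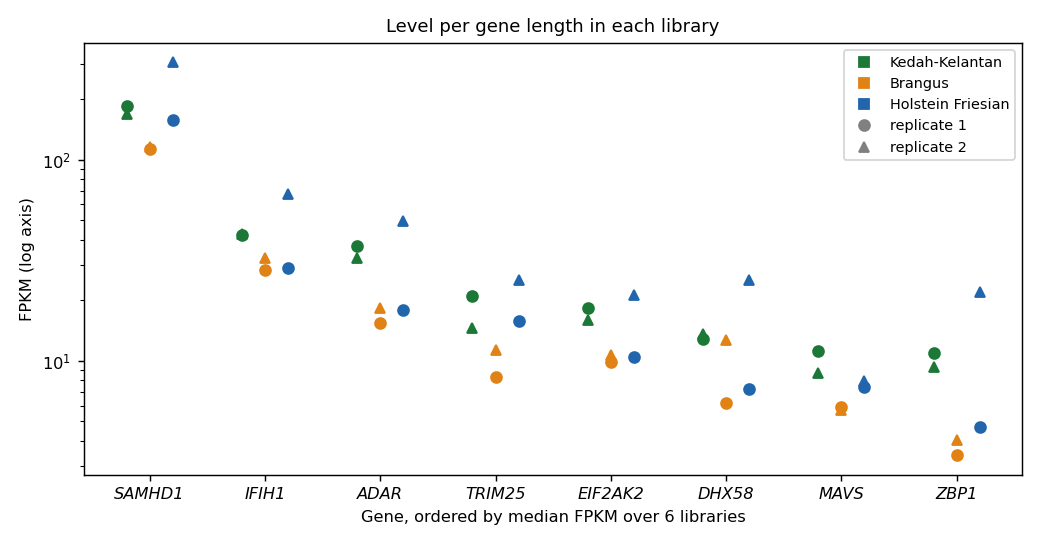
Deposited FPKM (vertical log axis) of the 8 genes, ordered by their median over the 6 libraries, with 1 point per library, colours for the breeds, circles for replicate 1 and triangles for replicate 2. SAMHD1 lies between 114 and 305 FPKM, above every other member in each library, and ZBP1 runs from 3.40 to 22.1.

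Of the RNA sensors, IFIH1 (gene-IFIH1, chromosome 2, 34111416 to 34167089, plus strand) measured 140.5 and 145 CPM in the Kedah-Kelantan libraries (replicate 1 first here and throughout), 114 and 131 in the Brangus libraries, and 103 and 269 in those of Holstein Friesian. Kedah-Kelantan lay above Brangus without overlap, and the Holstein Friesian libraries were the lowest and the highest of the 6. The breed means were 143 ± 3.35 CPM for Kedah-Kelantan (SD, n = 2 for every breed), 122 ± 12.5 for Brangus and 186 ± 117 for Holstein Friesian. On the log2 scale, differences from a breed to another are above 0 where the second breed named is higher. For a breed against another, a value above 0 means that the first breed named is higher. The difference from Brangus to Kedah-Kelantan was 0.22 (SE 0.44, edgeR adjusted p = 0.873), that from Holstein Friesian to Kedah-Kelantan -0.38 (SE 0.45, adjusted p = 0.995) and that from Holstein Friesian to Brangus -0.60 (SE 0.45, adjusted p = 0.706). DHX58 (gene-DHX58, chromosome 19, 42237043 to 42247590, minus strand) measured 30.3 and 32.7 CPM in the Kedah-Kelantan libraries, 17.6 and 36.3 in the Brangus libraries, and 18.2 and 70.3 in those of Holstein Friesian. It was the only member whose Brangus replicates differed over 2-fold (2.07-fold), and its libraries overlapped in all 3 comparisons. The 3 log2 differences of DHX58 in the same order were 0.22 (SE 0.69), -0.49 (SE 0.69) and -0.72 (SE 0.69), with 95% intervals that reached from -1.52 to 1.97, from -2.24 to 1.25 and from -2.47 to 1.04. Within a library, the FPKM of IFIH1 was 2.55 to 4.57 times that of DHX58, with both ends of that range in Brangus.

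The adaptor MAVS (gene-MAVS, chromosome 13, 51325469 to 51350648, minus strand) varied least. It measured 161 and 127 CPM in the Kedah-Kelantan libraries, 102 and 99.1 in the Brangus libraries, and 114 and 136 in those of Holstein Friesian. Brangus was the lowest breed, below both others without overlap, and the Kedah-Kelantan and Holstein Friesian libraries overlapped. The highest MAVS library was 1.63 times the lowest, and 69.7% of tested genes had a larger span. Its log2 fold change for Kedah-Kelantan against Brangus was 0.52 (SE 0.20, 95% interval 0.03 to 1.01), with an unadjusted edgeR p of 0.0423 and an adjusted p of 0.421. Against Holstein Friesian, MAVS was 0.21 higher on that scale in Kedah-Kelantan (SE 0.20, adjusted p = 0.995) and at -0.31 in Brangus (SE 0.20, adjusted p = 0.675). TRIM25 (gene-TRIM25, chromosome 19, 7716996 to 7737220, minus strand) measured 45.1 and 32.1 CPM in the Kedah-Kelantan libraries, 21.6 and 29.6 in the Brangus libraries, and 36.2 and 64.8 in those of Holstein Friesian. Here too Brangus lay below both other breeds, and Holstein Friesian replicate 1 lay within the Kedah-Kelantan range. For Brangus against Holstein Friesian the log2 fold change was -0.98 (SE 0.36, 95% interval -1.89 to -0.07), with an unadjusted edgeR p of 0.0398 and an adjusted p of 0.649. In Kedah-Kelantan it stood at 0.59 relative to Brangus (SE 0.36, adjusted p = 0.564) and at -0.39 relative to Holstein Friesian (SE 0.36, adjusted p = 0.995).

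EIF2AK2 and ADAR both act on double-stranded RNA, and both were higher in the Kedah-Kelantan libraries than in the Brangus libraries. EIF2AK2 (gene-EIF2AK2, chromosome 11, 19556767 to 19597286, minus strand) measured 200.3 and 178 CPM in the Kedah-Kelantan libraries, 130.2 and 143 in the Brangus libraries, and 123 and 277 in those of Holstein Friesian. Replicate 1 of Holstein Friesian was below Brangus and replicate 2 above Kedah-Kelantan. Fitted log2 differences came to 0.47 (SE 0.39, edgeR adjusted p = 0.674) from Brangus to Kedah-Kelantan, -0.08 (SE 0.39, adjusted p = 0.997) from Holstein Friesian to Kedah-Kelantan and -0.55 (SE 0.39, adjusted p = 0.697) from Holstein Friesian to Brangus. ADAR (gene-ADAR, chromosome 3, 15944976 to 15996881, plus strand) measured 241 and 214 CPM in the Kedah-Kelantan libraries, 120.0 and 145 in the Brangus libraries, and 125 and 382 in those of Holstein Friesian. The Kedah-Kelantan libraries were 1.71-fold higher than Brangus in the fit and did not overlap with it, and Holstein Friesian replicate 1 lay within the Brangus range. On the log2 scale, the difference from Brangus to Kedah-Kelantan was 0.78 (SE 0.52, edgeR adjusted p = 0.600), that from Holstein Friesian to Kedah-Kelantan -0.15 (SE 0.52, adjusted p = 0.996) and that from Holstein Friesian to Brangus -0.93 (SE 0.52, adjusted p = 0.666). ADAR has a constitutive and an interferon-inducible isoform, which counts per gene do not separate. The FPKM ratio of ADAR to EIF2AK2 was 2.03 and 2.02 in the libraries of Kedah-Kelantan, 1.55 and 1.71 in those of Brangus and 1.72 and 2.32 in those of Holstein Friesian. EIF2AK2 overlaps 2 genes of the opposite strand in the deposited positions, GPATCH11 by 425 bases and LOC112448863 by 1270 bases. These neighbours had 397 to 607 and 185 to 743 counts, against 3042 to 7284 for EIF2AK2, and without stated strandedness their reads cannot be told apart from its own where they overlap.

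SAMHD1 (gene-SAMHD1, chromosome 13, 65915450 to 65982707, minus strand), the deoxynucleotide hydrolase, measured 1137 and 1062 CPM in the Kedah-Kelantan libraries, 843 and 868 in the Brangus libraries, and 1040.3 and 2233 in those of Holstein Friesian. Brangus was the lowest breed without overlap, and Holstein Friesian replicate 1 lay just under the Kedah-Kelantan libraries. Fitted log2 differences came to 0.36 (SE 0.37, edgeR adjusted p = 0.735) from Brangus to Kedah-Kelantan, -0.57 (SE 0.37, adjusted p = 0.995) from Holstein Friesian to Kedah-Kelantan and -0.94 (SE 0.37, adjusted p = 0.653) from Holstein Friesian to Brangus. SAMHD1 overlaps TLDC2 on the other strand by 10291 bases, but TLDC2 had at most 7 counts in any library. ZBP1 (gene-ZBP1, chromosome 13, 58563756 to 58577638, plus strand), the sensor of left-handed nucleic acid, had the widest span of the 8. It measured 61.2 and 53.3 CPM in the Kedah-Kelantan libraries, 22.9 and 27.7 in the Brangus libraries, and 28.2 and 147 in those of Holstein Friesian. The Kedah-Kelantan libraries lay well above both Brangus libraries and above Holstein Friesian replicate 1, which was just above Brangus. The breed means were 57.2 ± 5.59 CPM for Kedah-Kelantan (SD, n = 2), 25.3 ± 3.37 for Brangus and 87.6 ± 83.9 for Holstein Friesian. On the log2 scale, the difference from Brangus to Kedah-Kelantan was 1.18 (SE 0.74, edgeR adjusted p = 0.574), that from Holstein Friesian to Kedah-Kelantan -0.61 (SE 0.73, adjusted p = 0.995) and that from Holstein Friesian to Brangus -1.79 (SE 0.75, adjusted p = 0.656). The highest ZBP1 library was 6.40 times the lowest, and 20.1% of tested genes had a larger span.

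Between Kedah-Kelantan and Brangus, all 8 genes had a log2 fold change above 0 (51.9% of all tested genes), with a median of 0.49 against 0.02 over all tested genes. The libraries of the 2 breeds did not overlap for 7 of 8 genes, all with Kedah-Kelantan higher, against 33.5% of all tested genes on that side. DHX58 was the exception. For the same 7 genes the difference of the breed means exceeded the larger replicate gap (50.8% of all tested genes in either direction), by the widest margins for ZBP1, where it was 1.18 on the log2 scale against a gap of 0.27, and ADAR, at 0.78 against 0.28. By plain library totals 8 of 8 genes had Kedah-Kelantan higher without overlap. That scaling moved the median difference in mean log2 CPM over all tested genes from 0.05 to 0.31 and the share of tested genes without overlap from 33.5% higher and 30.7% lower to 52.8% and 16.9%. Relative to that median, all 8 genes were still on the Kedah-Kelantan side.

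The test over 6 libraries uses the spread between the Holstein Friesian replicates for all comparisons. That spread was over 2-fold for 6 of the 8 genes. It was 1.79-fold for TRIM25 and 1.19-fold for MAVS, whose Kedah-Kelantan replicates lay further apart, at 1.27-fold. The main test over 6 libraries called 0 of the 8, and the counts of members called with fewer libraries were chosen after seeing the data. With only the 4 Kedah-Kelantan and Brangus libraries in the fit, edgeR called 5 of 8 members higher in Kedah-Kelantan, against 9.09% of all 13147 genes tested. ZBP1 was 1.18 higher on the log2 scale (SE 0.16, adjusted p = 0.00342), ADAR 0.78 (SE 0.13, adjusted p = 0.00875), EIF2AK2 0.48 (SE 0.12, adjusted p = 0.0293), MAVS 0.53 (SE 0.14, adjusted p = 0.0364) and SAMHD1 0.37 (SE 0.10, adjusted p = 0.0383). TRIM25 (0.60, SE 0.22, adjusted p = 0.101), IFIH1 (0.23, SE 0.12, adjusted p = 0.206) and DHX58 (0.23, SE 0.30, adjusted p = 0.634) did not pass. The same 5 genes passed without Holstein Friesian replicate 1 (8.35% of all tested genes were called higher) and without replicate 2 (7.92%). DESeq2 over 6 libraries called none of the 8. The edgeR fits without any 1 Kedah-Kelantan or Brangus library also called none. They kept both Holstein Friesian libraries, with which edgeR called none before any was left out, so they do not test the 4-library calls. Beside these differences, the summed level of 11 NK and cytotoxic cell markers was 998 to 1099 CPM in Kedah-Kelantan and 566 to 610 in Brangus. That of 11 monocyte markers was 1690.2 to 1931 and 1365 to 1414. Higher without overlap were 9 of the 11 NK and 7 of the 11 monocyte markers, against 33.5% of all tested genes. The other 4 monocyte markers had a log2 fold change below 0. Lower in sum in Kedah-Kelantan were 11 B and plasma cell markers, at 2130.1 to 2284 against 2901 to 3374 CPM. Of these, 8 of 11 were lower without overlap, against 30.7% of all tested genes. The sum of 11 neutrophil markers was also lower, at 1414 to 1500 against 1674 to 2707. Of the 10 tested, 5 were lower and 2 higher without overlap, against 30.7% and 33.5% of all tested genes. T cell markers overlapped, at 2793 to 3041 and 2840 to 3013. With the eosinophil and platelet markers given above, their part in the sensor levels was not tested.

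**Figure D3:**
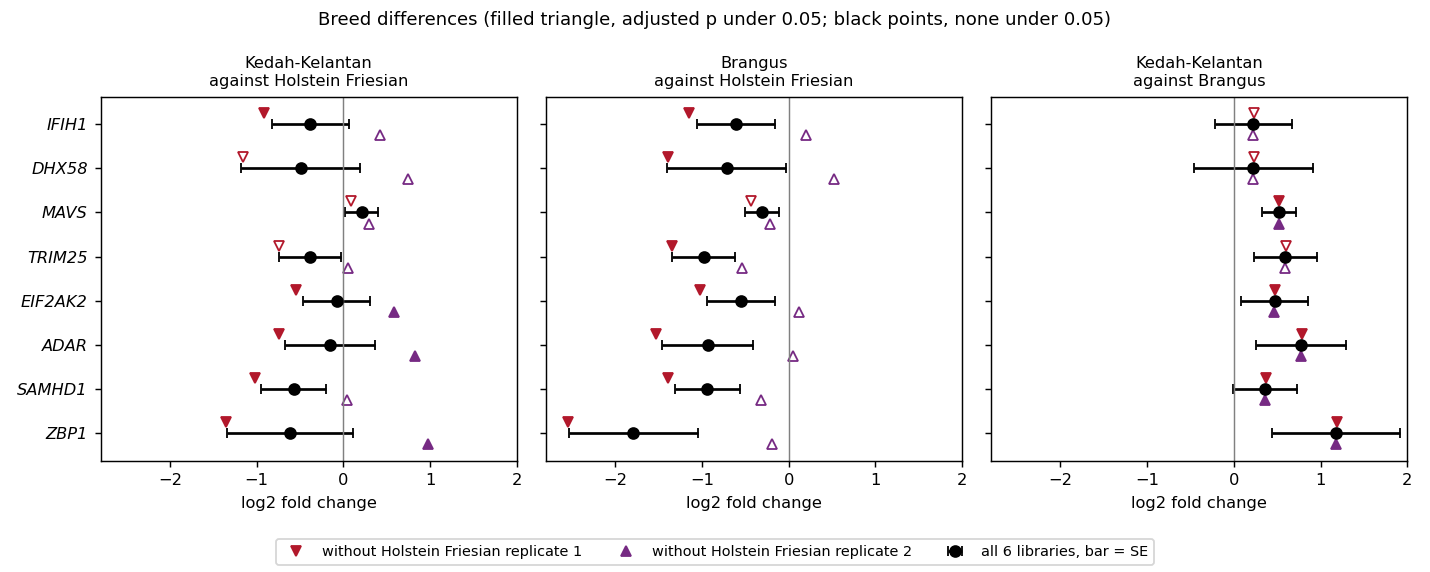
Log2 fold change (horizontal axis) of the 8 genes in the 3 comparisons, with black points and SE bars for the fit over 6 libraries and triangles for the fits without Holstein Friesian replicate 1 or replicate 2, filled where the edgeR adjusted p was under 0.05. Against Holstein Friesian the triangles lie on either side of the black points, and for Kedah-Kelantan against Brangus they lie on them, with MAVS, EIF2AK2, ADAR, SAMHD1 and ZBP1 filled. In that last comparison all triangles rest on the replicate spread of the same Kedah-Kelantan and Brangus libraries.

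For Kedah-Kelantan against Holstein Friesian, the direction of every member but MAVS depended on which Holstein Friesian library was used. For Brangus it did so for IFIH1, DHX58, EIF2AK2 and ADAR, while MAVS, TRIM25, SAMHD1 and ZBP1 were below Holstein Friesian with either library. Over 6 libraries, 7 of 8 genes had a log2 fold change below 0 for Kedah-Kelantan (53.5% of all tested genes) and 8 of 8 for Brangus (52.7%). The medians were -0.38 and -0.82, against -0.03 and -0.03 over all tested genes. No member separated Kedah-Kelantan from Holstein Friesian without overlap (18.1% of all tested genes did so higher and 12.6% lower), and MAVS, TRIM25, SAMHD1 and ZBP1 separated Brangus, on the lower side (4 of 8, against 15.9%). By plain library totals MAVS separated Kedah-Kelantan, on the higher side, and the shares of all tested genes moved to 28.6% higher and 6.16% lower, while for Brangus they moved from 18.4% higher and 15.9% lower to 11.3% and 23.3%, with 4 of 8 members still lower. With only the 4 libraries of the breeds compared, 0 of 8 members passed in either comparison, as did 0% of all tested genes in both. Without Holstein Friesian replicate 1, Kedah-Kelantan was lower in IFIH1, EIF2AK2, ADAR, SAMHD1 and ZBP1 by edgeR's test (5 of 8, against 10.7% of all tested genes called lower), from -0.55 for EIF2AK2 (adjusted p = 0.0302) to -1.36 for ZBP1 (adjusted p = 0.00136). Without replicate 2 it was higher in EIF2AK2 (0.59, adjusted p = 0.0371), ADAR (0.82, adjusted p = 0.0164) and ZBP1 (0.98, adjusted p = 0.018), 3 of 8 against 6.56% of all tested genes called higher. These 3 genes were thus called in opposite directions with either single library. For Brangus, 7 of 8 members were called lower without replicate 1 (16.8% of all tested genes), all but MAVS, with ZBP1 at -2.54 (adjusted p = 5.35e-05), and 0 of 8 were called without replicate 2 (6.06% of all tested genes were called), where the 8 values lay between -0.54 for TRIM25 and 0.53 for DHX58. In all these fits the lone library is assumed to vary like the other breeds.

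The 2 Holstein Friesian libraries lay far apart for most members. Replicate 2 was over 2-fold above replicate 1 for 6 of 8 members (20% of all tested genes). It was 5.20-fold for ZBP1, 3.86-fold for DHX58, 3.06-fold for ADAR, 2.61-fold for IFIH1, 2.26-fold for EIF2AK2 and 2.15-fold for SAMHD1. TRIM25 was at 1.79-fold and MAVS at 1.19-fold. In Kedah-Kelantan no member differed by more than 1.41-fold between replicates, and TRIM25 was the one at that value. Beside the Holstein Friesian gap stood the monocyte and neutrophil markers, 8116 against 886 and 5192 against 378 CPM, with all 11 monocyte markers counted in every library, and 8 markers of eosinophils, basophils and mast cells at 1323 against 41.8. The monocyte list was not uniform. Against replicate 2 alone, 2 of its 11 markers were higher in Kedah-Kelantan and 2 in Brangus. Against replicate 1 alone, 9 and 10 of the 11 were higher. The summed level of 9 markers of plasmacytoid dendritic cells, a main source of type I interferon, was lower in replicate 2, at 305 CPM against 840.3. That sum does not stand for each marker, as at least 1 of the 9 had no counts in replicate 1 but had counts in replicate 2. Against replicate 2 alone, 5 of the 9 were higher in Kedah-Kelantan and 6 of the 9 in Brangus. The part of these cell types in the sensor levels was not tested.

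**Figure D4:**
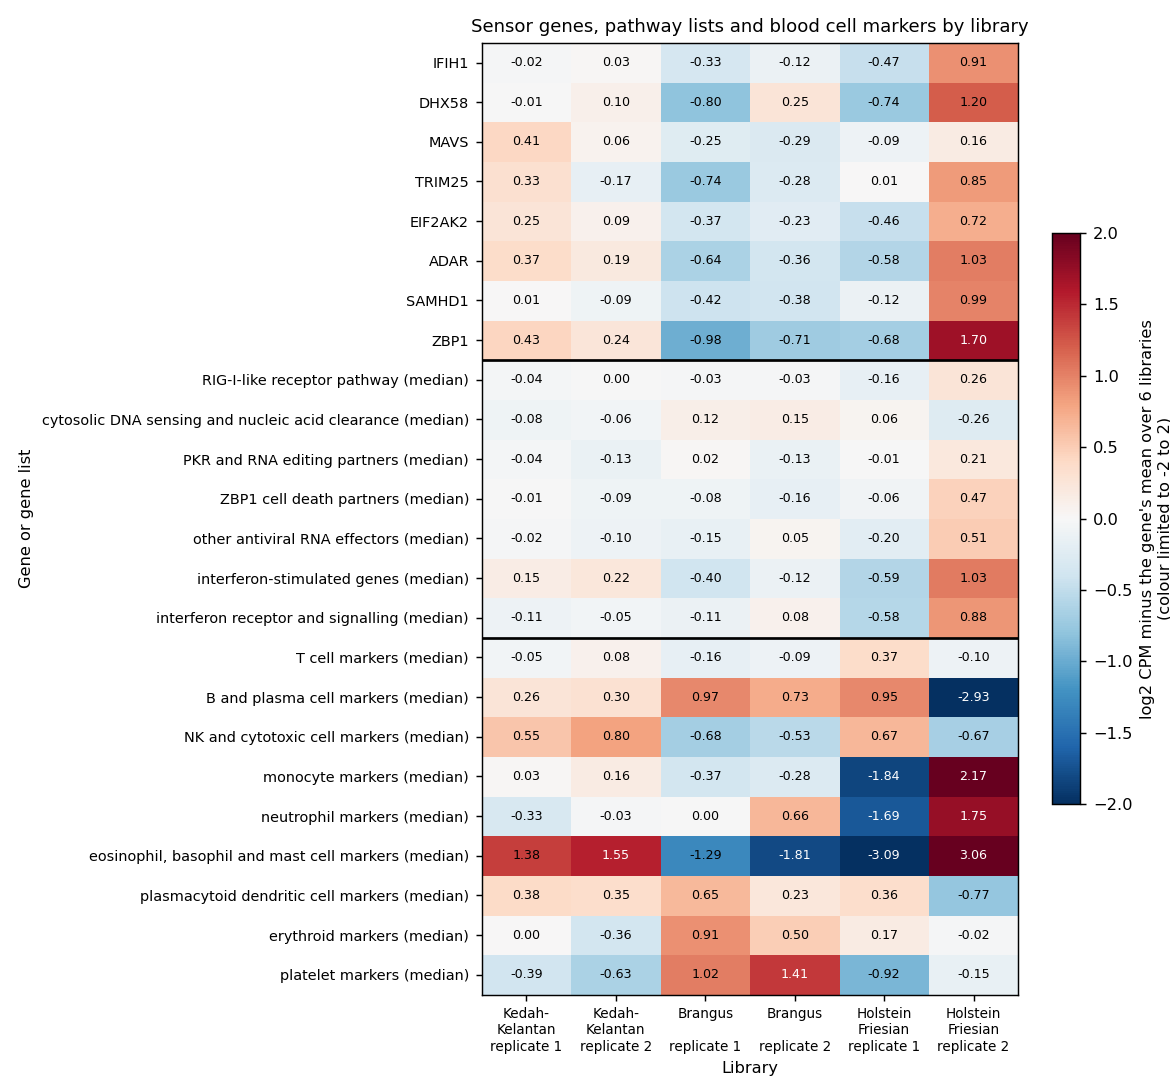
Log2 CPM minus the mean over the 6 libraries for each of the 8 genes (top) and the median of that value over the tested genes of 7 pathway lists (middle) and 9 blood cell marker lists (bottom), with 1 column per library, red for above and blue for below the mean. In Holstein Friesian replicate 2 all 8 genes are above their mean, as are the medians of interferon-stimulated genes (1.03), monocyte (2.17) and neutrophil markers (1.75).

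The other genes of these pathways were taken from 7 lists with 128 genes, and over 6 libraries edgeR called 0 of the 124 tested in each comparison. At an unadjusted p under 0.05 stood 4 for Kedah-Kelantan against Holstein Friesian, 7 for Brangus against Holstein Friesian and 10 for Kedah-Kelantan against Brangus. These are 3.23%, 5.65% and 8.06% of the 124, each below the share over all tested genes (4.04%, 7.62% and 11.6%). DESeq2 called 1, IFITM1, lower in Brangus than in Holstein Friesian. Interferon-stimulated genes other than the 8 are the antiviral genes that interferon induces. Of 28 tested, 23 were higher in Kedah-Kelantan than in Brangus (18 without overlap higher and 3 lower, against 33.5% and 30.7% of all tested genes), with a median log2 fold change of 0.57 against 0.02 over all tested genes. In Brangus against Holstein Friesian 25 of 28 were lower (median -0.69) and in Kedah-Kelantan against Holstein Friesian 17 of 28 (median -0.30). Both directions turned on 1 library. Without Holstein Friesian replicate 2, Kedah-Kelantan was on the higher side for 25 of 28 (median 1.01) and Brangus for 21 of 28 (median 0.24). Without replicate 1 the medians were -0.82 and -1.26. For the 8 sensors without replicate 2, the median turned for Kedah-Kelantan (0.51) but stayed slightly negative for Brangus (-0.07). With only the 4 Kedah-Kelantan and Brangus libraries, edgeR called 12 of the 28 higher in Kedah-Kelantan (against 9.09% of all tested genes) and 1, IFIT3, lower (against 10.2%), which is named because it was the exception. Without any 1 Kedah-Kelantan or Brangus library in the 6-library design, 0 genes in all were called. That design also called 0 for Kedah-Kelantan against Brangus with every library in it. IFIT3 was at 177 and 154 CPM in Kedah-Kelantan and at 228 and 335 in Brangus. The 2 genes of this list with the smallest p over 6 libraries were IFITM1, which restricts viral entry, and OAS1X, an oligoadenylate synthetase that double-stranded RNA activates. IFITM1 measured 478 and 556 CPM in the Kedah-Kelantan libraries, 271 and 375 in the Brangus libraries, and 675 and 669.8 in those of Holstein Friesian (Brangus against Holstein Friesian -1.06, SE 0.22, adjusted p = 0.641). OAS1X was at 98.8 and 58.6, 11.8 and 21.0, and 30.6 and 141 CPM in the same order (-2.39, SE 0.80, adjusted p = 0.645). OAS1X has close copies in the bovine genome, so its counts are uncertain.

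The remaining lists had smaller median differences between Kedah-Kelantan and Brangus. Of 26 genes of the RIG-I-like receptor pathway, 14 had the higher level in Kedah-Kelantan and 12 in Brangus (median log2 fold change 0.03), and with only these 4 libraries 3 were called higher and 3 lower, near the shares of all tested genes (9.09% and 10.2%). RIGI, the sister sensor of IFIH1, was among those called higher and is named after its values were seen. RIGI measured 120 and 112 CPM in the Kedah-Kelantan libraries, 53.4 and 79.3 in the Brangus libraries, and 38.2 and 165 in those of Holstein Friesian, so that its 6 libraries stood in the same order as those of EIF2AK2. The kinase RIOK3 (-0.62, SE 0.18, adjusted p = 0.359) and the mitochondrial import receptor TOMM70 (-0.65, SE 0.19, adjusted p = 0.367) had the smallest p of the list over 6 libraries, both for Kedah-Kelantan against Brangus. Of 20 genes of cytosolic DNA sensing and nucleic acid clearance, 12 were lower in Kedah-Kelantan than in Brangus (median -0.33), opposite in sign to the median of the 8 sensors. Without overlap were 11 lower and 4 higher, against 30.7% and 33.5% of all tested genes. With only these 4 libraries 0 of the 20 were called higher and 5 lower, against 9.09% and 10.2%. The smallest p of that list were for POLR3C, a subunit of RNA polymerase III (Brangus against Holstein Friesian 0.71, SE 0.22, adjusted p = 0.645), and PQBP1 (Kedah-Kelantan against Brangus -0.45, SE 0.16, adjusted p = 0.392).

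Partners of EIF2AK2 and ADAR in handling double-stranded RNA (15 tested) had medians of -0.20 for Kedah-Kelantan against Holstein Friesian, -0.21 for Brangus against Holstein Friesian and 0.02 for Kedah-Kelantan against Brangus. The medians against Holstein Friesian were -0.26 and -0.31 without its replicate 1, and -0.12 and -0.14 without its replicate 2. ILF2, a double-stranded RNA-binding complex subunit (-0.37, SE 0.17, adjusted p = 0.470), and EIF2S1, the EIF2AK2 substrate (-0.40, SE 0.25, adjusted p = 0.569), were its genes with the smallest p, both for Kedah-Kelantan against Brangus. Of 8 cell death partners of ZBP1, 7 were below Holstein Friesian in Brangus (median -0.32) and 7 in Kedah-Kelantan (median -0.26). Without replicate 2 of Holstein Friesian, 5 of 8 were below it in Brangus (median -0.11) and 4 in Kedah-Kelantan (median 0.06), and without replicate 1 the medians were -0.64 and -0.41. FADD, a death receptor adaptor, was at -0.93 (SE 0.31, adjusted p = 0.995) in Kedah-Kelantan and MLKL, the executor of necroptosis, at -0.64 (SE 0.25, adjusted p = 0.649) in Brangus. Of 11 other antiviral RNA effectors the medians were -0.31, -0.21 and -0.10 in the order used for the partners of EIF2AK2 and ADAR. The medians against Holstein Friesian turned to 0.24 and 0.12 without replicate 2 and were -0.78 and -0.51 without replicate 1. TRIM5, a capsid-binding restriction factor, was at -0.88 (SE 0.26, adjusted p = 0.995) in the comparison of Kedah-Kelantan and Holstein Friesian. The 16 genes of interferon receptors and signalling had medians of -0.35, -0.29 and -0.05. Here too the medians against Holstein Friesian turned, to 0.25 and 0.19 without replicate 2, and were -0.96 and -0.74 without replicate 1. Of this list, the smallest p were for the transcription factor IRF8 at -0.78 (SE 0.32, adjusted p = 0.430) in the comparison of Kedah-Kelantan and Brangus and the kinase TYK2 at -0.84 (SE 0.35, adjusted p = 0.656) in the comparison of Brangus and Holstein Friesian.

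Among 11020 other tested genes with a mean log2 CPM of at least 1, likeness to each member was measured as the root-mean-square difference of mean-centred log2 CPM over the 6 libraries. IFIH1 was nearest to MKNK1 (0.03) and LRP10 (0.04), against a median of 0.55 over the genes compared. DHX58 was nearest to SMIM29 (0.07) and GNAL (0.12), MAVS to EXOC2 (0.04) and TSC1 (0.04), and TRIM25 to MBP (0.11) and LOC112449111 (0.13). EIF2AK2 was nearest to TMEM106A (0.06) and ZFYVE9 (0.06), ADAR to TMEM164 (0.07) and TNFAIP3 (0.08), SAMHD1 to TYK2 (0.10) and CNDP2 (0.11), and ZBP1 to AHR (0.13) and FAM20C (0.15). No member was among the 2 nearest genes of another member. All these profiles share the same 6 libraries, including the Holstein Friesian pair that stood far apart.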

How the data were processed

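Per the submitters' processing notes, the tools were HISAT2 2.2.1, featureCounts 2.0.1, Trimmomatic 0.39, FastQC 0.11.9 and DESeq2 1.38.0, with build ARS-UCD1.2. No source used here states their settings or strandedness. The count files, as deposited, hold whole read counts per gene, not normalised, per the file headers. The deposited FPKM values are those counts per gene length and library total, deviating by at most 0.0503% over 4305 genes. Chromosome numbers were matched by symbol to a RefSeq table of another assembly, and positions are the authors' own.

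The test was edgeR 4.0.16 in R 4.3.3 (TMM scaling, filterByExpr, robust quasi-likelihood fit with breed as the only term, all 6 libraries). Benjamini-Hochberg adjustment ran over 13455 genes, with adjusted p under 0.05 called. The SE comes from the log2 fold change over the root of F. CPM use TMM-scaled library sizes, and centred log2 CPM add 0.5 to each count. DESeq2 1.42.0 and limma 3.58.1 (log2 of FPKM plus 1) served as alternatives, as did other scalings and filters, a fit with the replicate number as a block, and leaving out each library. The members and lists were chosen with earlier results of these data known. The 8 members were named throughout. From each list the called genes, or else the 2 with the smallest p, were named, and the 2 genes most like each member. Of the genes so selected, 1 is not reported here. Promoter motifs, also planned, were not searched here because no sequence was used. P-values measure the spread between libraries labelled biological replicates. On simulated counts edgeR recovered 55 of 100 genes changed 4-fold and 88 changed 16-fold for Kedah-Kelantan against Holstein Friesian, 46 and 82 for Brangus against Holstein Friesian, and 45 and 87 for Kedah-Kelantan against Brangus, with 13193, 13180 and 13165 genes tested. The simulation gave all libraries the same spread per gene, and edgeR also called 5, 9 and 13 unchanged genes in it. Its sizes were above the largest member difference of 3.46-fold (ZBP1, Brangus against Holstein Friesian). Real replicates of each breed differed by more than sampling noise (chi-square per degree of freedom 17.9 to 498, the last in Holstein Friesian).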

Additional observations from a re-analysis of the deposited data

How the results depend on the processing

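Limits: with 2 libraries per breed, the spread between the Holstein Friesian replicates enters every test over all 6 libraries. Depth does not limit the 8 genes, each with at least 410 counts in every library. Of the 8 genes, 0 were called in each comparison under every setting that kept all 6 libraries in the fit. For Kedah-Kelantan against Brangus, 5 members and 2537 genes in all were called with only the 2 breeds compared. DESeq2 called 108, 277 and 533 genes in all in the comparisons with Holstein Friesian (Kedah-Kelantan, then Brangus) and in Kedah-Kelantan against Brangus. In that order edgeR as reported called 1, 1 and 0 and FPKM with limma called 2, 1 and 1. A filter at a mean count of 50 called 0, 0 and 0, as did the replicate block and the fits with only the 2 breeds compared for the first 2 comparisons, and DESeq2-type size factors called 1, 0 and 0. Leaving out 1 library gave 0 to 5, 0 to 7 and 0 to 5 members, and 0 to 2464, 0 to 4395 and 0 to 2458 genes in all. Calls came only from the fits without Holstein Friesian replicate 1 or 2. For Kedah-Kelantan against Holstein Friesian, the log2 fold changes of EIF2AK2 and ADAR turned to 0.18 and 0.21 with limma on FPKM and to 0.00784 and 0.0102 with the replicate block. Over the fits without 1 library it ran from -0.91 to 0.43 for IFIH1, -1.16 to 0.75 for DHX58, -0.75 to 0.051 for TRIM25, -0.55 to 0.59 for EIF2AK2, -0.74 to 0.82 for ADAR, -1.02 to 0.038 for SAMHD1 and -1.36 to 0.98 for ZBP1. For Brangus against Holstein Friesian it ran from -1.14 to 0.21 for IFIH1, -1.39 to 0.53 for DHX58, -1.03 to 0.12 for EIF2AK2 and -1.53 to 0.050 for ADAR, and for Kedah-Kelantan against Brangus from -0.22 to 0.85 for DHX58. The cause of these turns was not tested beyond leaving out each library. Samples of different breeds share only a replicate number: replicate differences correlated at -0.002, 0.02 and 0.04 between breeds over 13455 genes, and the block left 0 calls in each comparison. The overlap counts by other scalings and the counts of members called with fewer libraries were chosen after seeing the data.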
